A study of Mus musculus with 8 samples.

Results

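The Slit ligands, their Robo receptors and the Srgap proteins that act behind Robo inside the cell were measured in neural progenitor (NP) cells with and without *Sox3*. The set was chosen by name and holds the ligand genes *Slit1*, *Slit2* and *Slit3*, the receptor genes *Robo1*, *Robo2*, *Robo3* and *Robo4*, and *Srgap1*, *Srgap2* and *Srgap3*. All 10 genes were found, of 19938 genes that have a transcript cluster of their own on the array. A transcript cluster is the set of probes along a gene that the array summarises into 1 value. The 10 genes have 11 transcript clusters of the 23410 that carry a gene symbol, because *Srgap3* has 2, and none of the 11 is shared with another gene. *Slit1* is among the genes that the study selected on these same arrays, so its difference between genotypes here is not independent evidence. By qRT-PCR, the paper reports significantly higher *Slit1* in independent samples of null cells. In *Sox3* null embryos it found no significant difference in *Slit1*.

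The cells were mouse R1 embryonic stem (ES) cells kept for 4 days in N2B27, a medium without serum that lets ES cells take on a neural fate. The control group came from a line with a conditional *Sox3* allele, which the labels call *Sox3* positive and the methods wild type. The *Sox3* null group came from a line in which GFP replaces the single exon of *Sox3*, a transcription factor gene of neural progenitors. Each group had 4 cultures, 2 from either of 2 differentiation batches, with 1 Affymetrix mouse gene array per culture. Because each genotype is a different targeted line, loss of *Sox3* and other differences between these lines cannot be told apart. *Sox3* itself read 8.39, 8.56, 8.67 and 8.37 on the null arrays and 9.92, 9.84, 9.73 and 9.76 on the control arrays, as log2 signals. The groups did not overlap, in keeping with their labels. The null arrays still lay above the array medians over named transcript clusters, 7.63 to 7.70. The paper reports that *Sox3* was not detected in its mutant samples. The source of the signal left on the null arrays was not tested. The progenitor factor genes *Sox1*, *Sox2* and *Pax6* were measured in both groups and did not pass the test between them. The 95% intervals of the difference, as log2, were 0.10 to 0.32 for *Sox2* and 0.02 to 0.23 for *Pax6*, both above 0, and -0.09 to 0.32 for *Sox1*.

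Slits are large secreted proteins that bind Robo receptors on the surface of growing axons and migrating cells, and are best known for turning axons away from the midline of the neural tube. Robo1 and Robo2 carry this repulsion, Robo3 lets commissural axons reach and cross the midline, and Robo4 is best known from endothelium. The Srgap proteins bind the part of Robo inside the cell and bend membranes through an F-BAR domain.

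Of the 10 genes, 3 rose in *Sox3* null cultures, 7 did not pass the test and none fell. *Slit1* rose 1.64-fold, *Slit2* 1.47-fold and *Srgap1* 1.32-fold. No Robo gene passed. A gene passed at a Benjamini-Hochberg adjusted p of 0.05 or less from limma, fitted over all 23410 named transcript clusters with genotype and batch. Of those, 1.15% rose and 0.393% fell. *Slit1* and *Slit2* also reached a fold change of 1.4, the fold threshold of the study, which 0.32% of transcript clusters did upward and 0.111% downward. The study's own list, drawn from these arrays, holds *Slit1* and not *Slit2*. That list needed the same fold threshold and a p of 0.05 or less from its own analysis of variance with batch. It gives *Slit1* a larger fold change than the 1.64 found here. The fold threshold therefore need not cut at the same place there as here. Changes are given below as log2 differences, that is log2 fold changes, of *Sox3* null minus control. Their median over the 10 genes was 0.10, against -0.00011 over all transcript clusters tested. The samples are bulk cultures, so a change in the share of cells that make a transcript and a change in the amount of RNA per cell cannot be told apart.

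**Figure D1:**
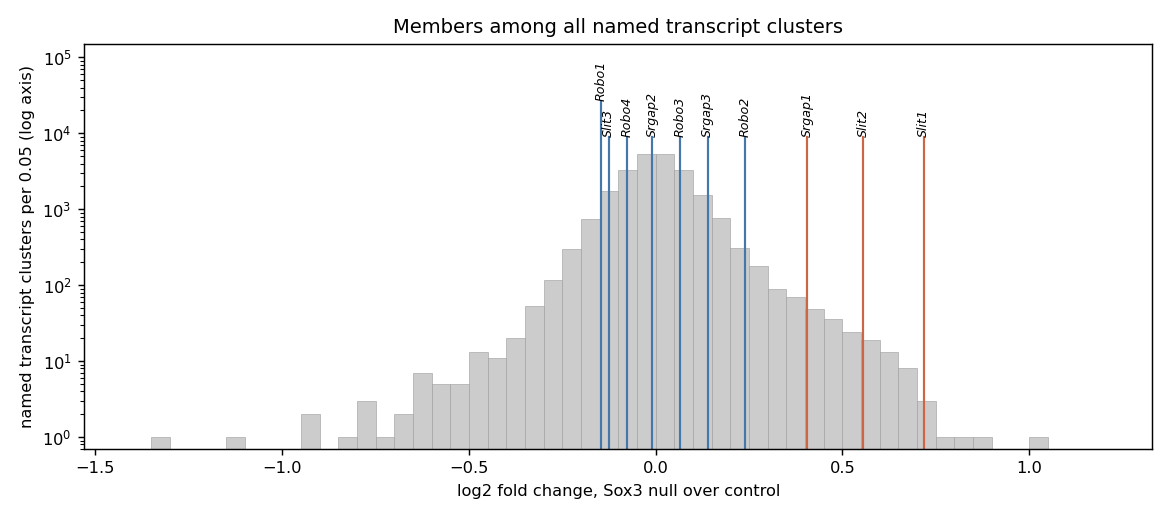
Number of named transcript clusters (vertical axis, log scale) in each step of 0.05 of the log2 difference of *Sox3* null over control (horizontal axis), with the 10 genes as vertical lines, orange where the adjusted p was 0.05 or less. *Slit1*, *Slit2* and *Srgap1* lie in the right tail at 0.72, 0.56 and 0.41, and the other 7 lie between -0.15 and 0.24.

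*Slit1*, a ligand gene of the nervous system, read 9.41 and 9.45 on the control arrays of batch 1 and 10.16 and 10.19 on the null arrays of that batch. In batch 2 it read 8.62 and 8.87 on the control arrays and 9.38 and 9.50 on the null arrays. Within each batch the null arrays were the higher ones, whereas the null arrays of batch 2 overlapped the control arrays of batch 1. The log2 difference of null over control was 0.72 (standard error 0.06, 95% interval 0.58 to 0.86, adjusted p = 4.59e-04), with 0.74 in batch 1 and 0.69 in batch 2. It missed the threshold without the batch term (adjusted p = 0.53), with batch as a random block (0.0997) and in a plain linear model, where each gene keeps its own variance (0.05005).

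*Slit2*, the ligand gene best known from the floor plate, the ventral midline of the neural tube, read 8.04, 8.21, 8.08 and 8.19 on the control arrays and 8.69, 8.50, 8.60 and 8.94 on the null arrays. All 4 null arrays lay above all 4 control arrays, in contrast to *Slit1*. The 4 null arrays lay wholly above the 4 control arrays for 2.41% of all named transcript clusters. The log2 difference was 0.56 (standard error 0.08, 95% interval 0.37 to 0.74, adjusted p = 0.00834), with 0.47 in batch 1 and 0.64 in batch 2. Without *Sox3* null replicate 4, the highest null array, it was 0.47, which is below 1.4-fold (adjusted p = 0.0144). *Slit2* missed the threshold when the rows without a gene symbol were fitted too (adjusted p = 0.0826), without the batch term (0.0659) and in the plain linear model (0.183).

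*Slit3*, the ligand gene of the family that is also widely expressed outside the nervous system, read 9.44 and 9.54 on the control arrays of batch 1 and 9.17 and 9.23 on the null arrays. In batch 2 it read 8.48 and 8.76 on the control arrays and 8.58 and 8.73 on the null arrays. The null arrays were the lower ones in batch 1, and in batch 2 they lay between the control arrays. Over both batches the log2 difference was -0.13 (95% interval -0.31 to 0.06, adjusted p = 0.591), an interval that holds neither a fall nor a rise of 1.4-fold. The genotype effect on *Slit3* was -0.29 in batch 1 and 0.04 in batch 2, and this difference had an unadjusted p of 0.0442 and an adjusted p of 0.9997 from limma. A genotype by batch term passed for none of the 23410 transcript clusters in limma and for none in the plain linear model, and 3.05% had an unadjusted p under 0.05 in limma.

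Whether *Slit1* moved differently from the other ligand genes was tested on the log2 ratio of their signals within each array, of which only the change between genotypes can be read. The ratio of *Slit1* to *Slit3* ran from -0.09 to 0.14 on the control arrays and from 0.76 to 0.99 on the null arrays. It was higher in null cells by 0.84, with 1.03 in batch 1 and 0.65 in batch 2. An exact two-sided permutation test of the genotypes within batches gave p = 0.0556, the smallest that its 36 arrangements allow, and 0.111 when adjusted over the 2 ratios tested. The ratio of *Slit1* to *Slit2* differed between genotypes by 0.16, with 0.27 in batch 1 and 0.06 in batch 2 (exact permutation p = 0.167, adjusted p = 0.167).

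**Figure D2:**
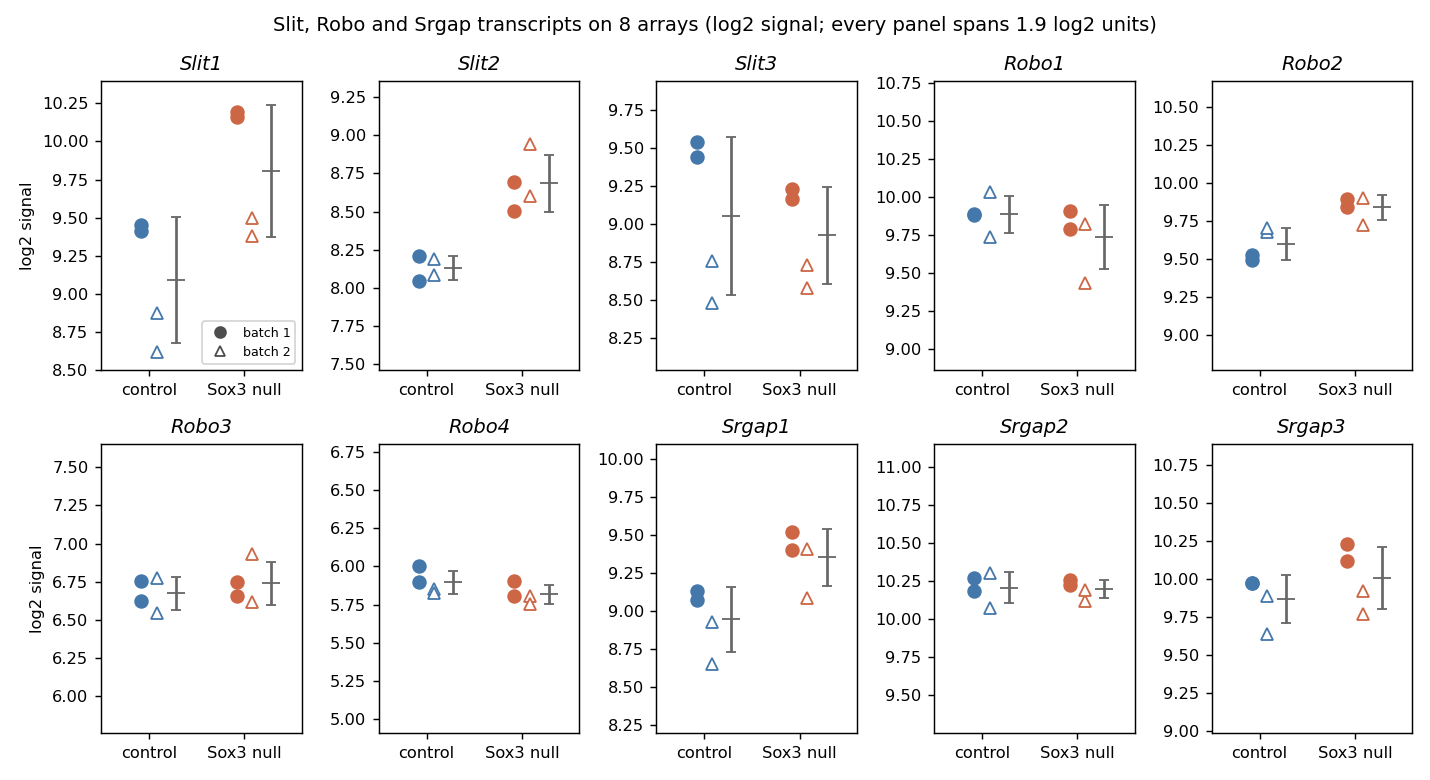
Log2 signal (vertical axis) of the 10 genes on each of the 8 arrays, by genotype (horizontal axis). Filled circles are batch 1, open triangles batch 2, and grey marks the mean and SD of 4 arrays; every panel spans the same range. *Slit1* and *Slit3* are lower in batch 2 in both genotypes, and *Slit2* separates the genotypes in both batches.

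The promoters of *Slit2* and *Srgap1*, which rose, and of *Slit3*, which did not pass, are shown as RefSeq sequence of GRCm38.p6, 5′ to 3′ along the gene, from 250 bases before to 50 after the start. A RefSeq promoter was at hand for 9 of the 10 genes, 11 promoters in all, and not for *Slit1*. Capitals mark ACAAAG or ACAATG, words that hold the core of SOX recognition sites, searched on both strands.
*Slit2* promoter, chr5:47982905-47983204, plus strand: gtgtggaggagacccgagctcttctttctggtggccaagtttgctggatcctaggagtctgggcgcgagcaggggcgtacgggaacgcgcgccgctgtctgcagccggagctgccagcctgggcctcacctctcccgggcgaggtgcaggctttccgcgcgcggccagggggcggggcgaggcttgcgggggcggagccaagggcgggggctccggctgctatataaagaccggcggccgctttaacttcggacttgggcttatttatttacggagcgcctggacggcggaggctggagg
*Slit3* promoter, chr11:35121206-35121505, plus strand: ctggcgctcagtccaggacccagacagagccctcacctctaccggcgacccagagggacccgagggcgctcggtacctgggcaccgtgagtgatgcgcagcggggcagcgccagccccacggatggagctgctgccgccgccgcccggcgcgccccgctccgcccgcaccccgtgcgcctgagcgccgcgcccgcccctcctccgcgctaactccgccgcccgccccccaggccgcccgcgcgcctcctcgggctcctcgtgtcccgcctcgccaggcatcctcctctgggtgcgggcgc
*Srgap1* promoter, chr10:122047266-122047565, minus strand: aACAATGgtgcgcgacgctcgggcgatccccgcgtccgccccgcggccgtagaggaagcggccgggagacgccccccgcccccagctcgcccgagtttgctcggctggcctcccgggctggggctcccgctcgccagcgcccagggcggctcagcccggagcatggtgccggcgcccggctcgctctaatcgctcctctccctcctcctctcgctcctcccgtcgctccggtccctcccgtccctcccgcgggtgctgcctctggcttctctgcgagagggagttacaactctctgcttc
A word was found in 2 of the 11 promoters, ACAATG at the 5′ end of the *Srgap1* window and ACAATG at -88 from the start of *Srgap3*. Of all 32851 promoters of this length, 28.6% held either word. The *Slit2* and *Slit3* windows held neither, and were 68.0% and 78.3% G and C, against a median of 52.7% over all promoters. These words are a description of the windows and were not tested for binding.

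*Slit2* and *Slit3* each hold a gene of the microRNA miR-218 within their bounds in GRCm38.p6, *Mir218-1* in *Slit2* and *Mir218-2* in *Slit3*. Both give the same mature microRNA, known to act on *Robo1* and *Robo2* messages, shown here with the seed, bases 2 to 8, in capitals because it is the part that pairs with targets.
mmu-miR-218-5p: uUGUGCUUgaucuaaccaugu
Both microRNA genes have a transcript cluster on the array, looked up after the Slit values were seen. *Mir218-1* read 5.36 ± 0.209 (SD, n = 4) on the control arrays and 5.24 ± 0.18 (SD, n = 4) on the null arrays as log2 signal. Its log2 difference was -0.12 (95% interval -0.33 to 0.10, adjusted p = 0.704), while its host *Slit2* rose. *Mir218-2* had a log2 difference of -0.15 (95% interval -0.38 to 0.08, adjusted p = 0.599). Both lay among the dimmer transcript clusters, below the median signal of all named ones. The mature microRNA was not measured on its own, so these differences say little about the amount of miR-218.

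None of the 4 Robo genes passed the test in either direction. *Robo2*, a receptor gene of axon repulsion, came nearest. It read 9.49, 9.52, 9.68 and 9.70 on the control arrays and 9.89, 9.84, 9.90 and 9.72 on the null arrays. The 4 null arrays lay above the 4 control arrays, and null replicate 4 and control replicate 4, both of batch 2, lay closest. The log2 difference was 0.24 (standard error 0.06, 95% interval 0.10 to 0.38, adjusted p = 0.112), with 0.36 in batch 1 and 0.12 in batch 2. Without *Sox3* null replicate 4 it was 0.30 and passed (adjusted p = 0.0416).

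*Robo1*, its closest partner in axon repulsion, read 9.88, 9.89, 9.74 and 10.03 on the control arrays and 9.79, 9.91, 9.44 and 9.83 on the null arrays. The groups overlapped, and the lowest reading was that of null replicate 3. The log2 difference was -0.15 (95% interval -0.36 to 0.06, adjusted p = 0.574). *Robo3*, the receptor gene of commissural axons, had a log2 difference of 0.06 (95% interval -0.11 to 0.24), and *Robo4*, the endothelial receptor gene, had -0.08 (95% interval -0.19 to 0.03). *Robo3* read between 6.54 and 6.93 and *Robo4* between 5.76 and 6.004 over the 8 arrays. These 2 are the only ones of the 10 genes with a mean signal below the median of all named transcript clusters, so 8 of the 10 passed a filter at that level. No interval of the 4 receptor genes reaches a rise or a fall of 1.4-fold.

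*Srgap1*, which encodes a GTPase-activating protein that binds Robo1, read 9.07, 9.13, 8.65 and 8.93 on the control arrays and 9.40, 9.52, 9.09 and 9.41 on the null arrays. The null arrays were the higher ones in each batch, and over the batches the groups overlapped. The log2 difference was 0.41 (standard error 0.08, 95% interval 0.22 to 0.59, adjusted p = 0.0375), with 0.36 in batch 1 and 0.45 in batch 2. It passed without control replicate 4 or *Sox3* null replicate 3 and missed the threshold when any of the other 6 arrays was left out (adjusted p from 0.0714 to 0.121, over control replicates 1, 2 and 3 and null replicates 1, 2 and 4). It also missed it over all rows of the table (0.177), when batch was left out (0.418) or made a random block (0.133), and in the plain linear model (0.275).

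*Srgap3*, a family member of the brain, has 2 transcript clusters, and neither passed. The brighter read 9.98, 9.97, 9.64 and 9.89 on the control arrays and 10.12, 10.23, 9.77 and 9.92 on the null arrays, with a log2 difference of 0.14 (95% interval -0.01 to 0.29, adjusted p = 0.419). The dimmer had 0.19 (95% interval 0.06 to 0.31, adjusted p = 0.183), and its null arrays lay above its control arrays in each batch. *Srgap2*, a regulator of neuronal migration and spine maturation, read between 10.07 and 10.30 on the control arrays and between 10.12 and 10.26 on the null arrays. Its log2 difference was -0.01 (95% interval -0.14 to 0.12), and its sign turned in 5 of 20 alternatives. Within both batches the null arrays lay above the control arrays for *Slit1*, *Slit2*, *Robo2* and *Srgap1*, 4 of the 10 genes, against 7.01% of all named transcript clusters.

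The differentiation batch moved 4 of the 10 genes at an adjusted p of 0.05 or less, all of them lower in batch 2. Over all named transcript clusters, 9.35% were lower and 10.9% higher in batch 2. *Slit1* fell by 0.72 on the log2 scale from batch 1 to batch 2 (standard error 0.06, adjusted p = 7.15e-05). *Slit3* fell by 0.71 (standard error 0.08, adjusted p = 3.27e-04). For *Slit1*, genotype took 49.1% of the sum of squares over the 8 arrays and batch took 48.9%, and for *Slit3* genotype took 2.79% and batch 87.5%. *Slit2* differed from both, with genotype at 83.0% and batch at 2.25%, and a batch difference of 0.09 (95% interval -0.09 to 0.28).

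Among the intracellular partners, *Srgap3* fell by 0.27 from batch 1 to batch 2 (adjusted p = 0.0173), and by 0.42 at its dimmer transcript cluster (adjusted p = 6.88e-04). *Srgap1* fell by 0.26 (adjusted p = 0.0452). When 1 array was left out, the *Srgap1* batch difference missed the threshold in 6 of 8 fits (adjusted p up to 0.14) and that of *Srgap3* in 3 of 8 (up to 0.0597, without null replicate 2, null replicate 3 or control replicate 3). *Srgap1* passed without control replicate 4 or null replicate 4. The batch differences of the Robo genes lay between -0.11 and 0.06, and none passed. The batches are independent differentiation series.

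**Figure D3:**
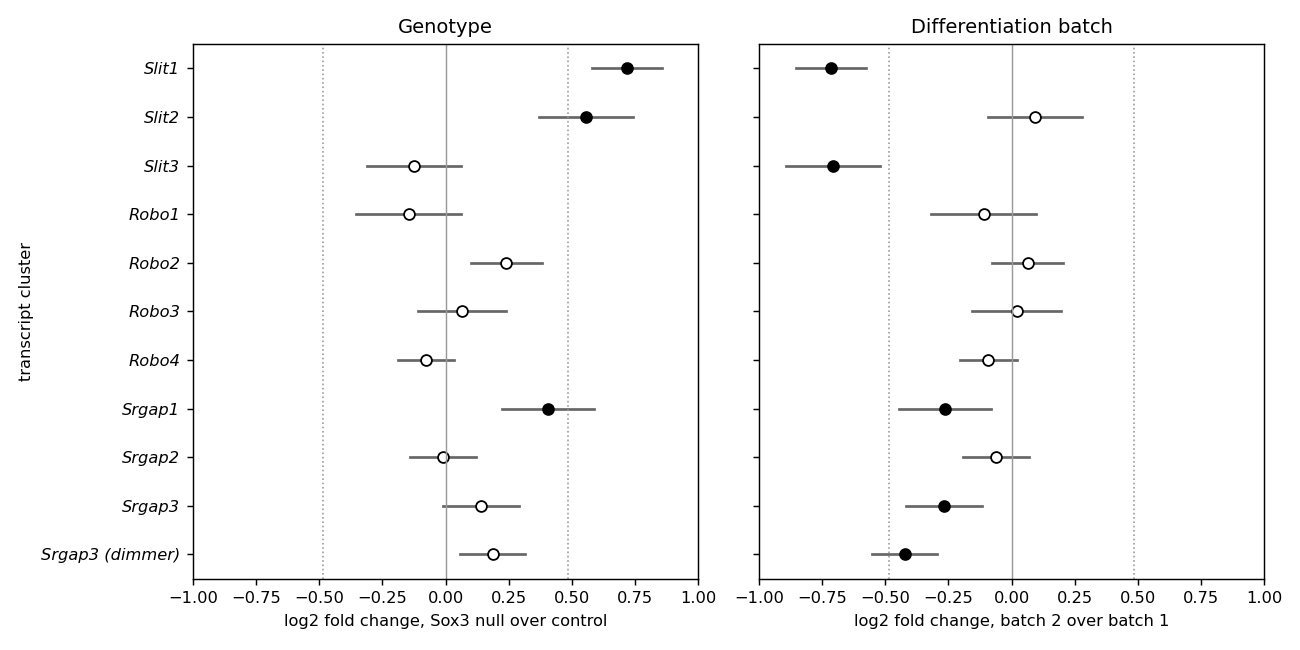
Log2 fold change (horizontal axes) of *Sox3* null over control, left, and of batch 2 over batch 1, right, for the 11 transcript clusters. Points are limma's estimates, filled where the adjusted p was 0.05 or less, lines are 95% intervals and dotted lines mark 1.4-fold. *Slit1* is shifted by 0.72 upward by genotype and by -0.72 by batch, while *Slit2* is shifted by genotype and *Slit3* by batch.

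Of 41 other genes of Slit and Robo signalling, 39 were measured by a transcript cluster of their own, and *Ndst1* and *Pak1* were not. Among the 39, 2 rose in null cultures, 37 did not pass and none fell, against 1.15% of all transcript clusters that rose. Their median log2 difference was 0.06, and 31 of the 39 lay above 0, as did 50% of all transcript clusters. *Dcc*, the Netrin receptor gene whose protein Robo1 can silence, read 8.15, 8.17, 8.06 and 8.38 on the control arrays and 8.86, 8.75, 8.56 and 8.90 on the null arrays. Its groups did not overlap. *Dcc* rose 1.495-fold, with a log2 difference of 0.58 (standard error 0.09, 95% interval 0.39 to 0.77, adjusted p = 0.00834). Like *Slit2*, it is not in the study's own list.

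*Nell2*, which encodes a secreted ligand of Robo3, read 10.10, 10.02, 9.99 and 10.18 on the control arrays and 10.38, 10.38, 10.40 and 10.45 on the null arrays. Here too the groups were apart. *Nell2* rose 1.26-fold, with a log2 difference of 0.33 (standard error 0.05, adjusted p = 0.013), and did not pass without control replicate 2 (adjusted p = 0.0525). Both genes missed it over all rows of the table (adjusted p = 0.0826 for *Dcc* and 0.0775 for *Nell2*), without the batch term (0.0573 and 0.0703) and in the plain linear model (0.188 and 0.124).

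By role, none of the 6 measured genes of Slit-binding proteoglycans and matrix receptors passed (median 0.14), none of 4 genes of heparan sulfate synthesis (median 0.03), none of 5 genes of receptor sorting, turnover and cleavage (median 0.11) and none of 17 genes of cytoplasmic effectors (median 0.05). At an unadjusted p under 0.05 there were 11 of the 39, all higher, against 13.1% of all transcript clusters in either direction. Without control replicate 4, the syndecan gene *Sdc3* also passed, with 0.34 (adjusted p = 0.0498). From batch 1 to batch 2, 10 of the 39 fell and 2 rose, against 9.35% and 10.9% of all transcript clusters.

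**Figure D4:**
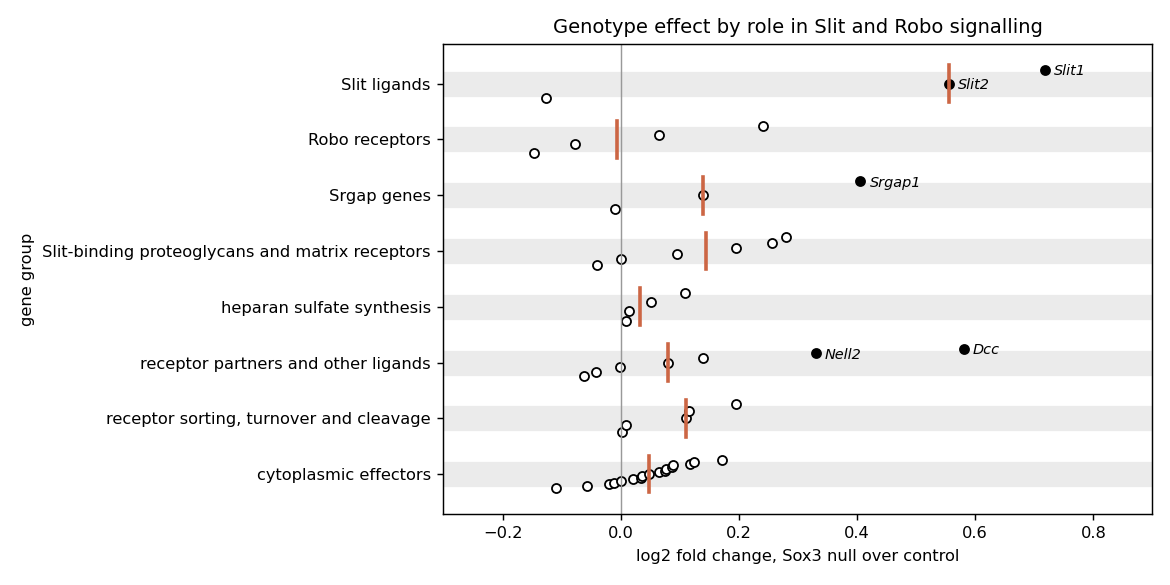
Log2 fold change by genotype, *Sox3* null over control, along the horizontal axis, for the 10 genes and for 39 other genes of Slit and Robo signalling grouped by role (vertical axis). Circles are genes, filled and named where the adjusted p was 0.05 or less, and bars are group medians, 0.56 for the Slit ligands and -0.01 for the Robo receptors.

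Markers of the cell types that make or read these cues were listed beside them. Of 5 floor plate markers, 4 measured roof plate markers, 5 markers of commissural neurons and 8 endothelial markers, none passed for genotype. Their medians were 0.03, -0.02, -0.06 and -0.05. The summed linear signal of the floor plate markers ran from 781 to 840 on the control arrays and from 715 to 835 on the null arrays, and 2 of its 5 genes were above the median signal of all named transcript clusters. The roof plate sums ran from 651 to 766 and from 556 to 854. Those of the commissural markers ran from 635 to 744 and from 625 to 704. Those of the endothelial markers ran from 669 to 728 and from 622 to 693. Above the median signal were 1 of the 4 roof plate, 1 of the 5 commissural and 0 of the 8 endothelial markers. These lists therefore rest mostly on dim transcript clusters, where a missing difference says little about the cell type.

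Some markers of progenitors, neurons and other cells passed for genotype. Of 6 neural progenitor markers, *Nes*, which encodes nestin, rose (log2 difference 0.49, adjusted p = 0.00947), 5 did not pass and all 6 lay above 0. The summed signal of this list was 23966 to 24863 on the null arrays and 20989 to 21452 on the control arrays, so that the groups did not overlap. *Fabp7* and *Sox2* weigh most in these sums, with mean log2 signals of 12.95 and 12.39 on the control arrays. Neither passed (adjusted p = 0.128 and 0.0825), and *Nes* had 10.81. Of 6 early neuron markers, *Nhlh1*, a proneural factor gene, rose by 0.55 (adjusted p = 0.0264) and *Map2*, a microtubule protein gene, by 0.47 (adjusted p = 0.0132), and 4 did not pass. *Stmn2*, also a microtubule regulator gene and the only one of the 6 below 0, had -0.17 (95% interval -0.32 to -0.02, adjusted p = 0.317). *Map2* missed the threshold without null replicate 1 or control replicate 3 (adjusted p up to 0.0555) and *Nhlh1* without null replicate 1 or control replicate 1, 2 or 3 (up to 0.102). The sums overlapped, with 5869 to 6377 on the null arrays and 5579 to 6785 on the control arrays. *Stmn2* weighs most in these sums. Its mean log2 signal on the control arrays was 11.94, against 9.34 for *Tubb3*, the next brightest of the list. Of 5 pluripotency markers, *Nanog* fell with a difference of -0.37 (adjusted p = 0.0464), and missed the threshold when any array but control replicate 4 was left out (adjusted p up to 0.152). The other 4 did not pass, and 2 of the 5 lay above 0. The sums of this list were 5351 to 7879 on the null arrays and 6392 to 7758 on the control arrays. Of 6 fibroblast markers, *Thy1*, a surface protein gene also made by other cells, fell with -0.51 (adjusted p = 0.00525), 5 did not pass and 3 of the 6 lay above 0. The sums were 793 to 1084 on the null arrays and 999 to 1218 on the control arrays. The lowest log2 signal of any named transcript cluster on any array was 3.62, so a signal above 0 does not show that a marker was expressed. The part of these cell types in the Slit and Srgap differences was not tested.

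The genes whose signal followed *Slit1* most closely over the 8 arrays were *P3h2* (Pearson r = 0.995), *Pax7* (0.992), *Flrt2* (0.987), *Dtx4* (0.987) and *Nr2f2* (0.986). They are the top 5 of 2329 genes whose signal varied with an SD of at least 0.2. The 8 arrays share 2 genotypes and 2 batches. The 5 genes were picked for following *Slit1*, which differed by both, so their own differences by genotype and batch are no separate evidence. Each had an adjusted p of 0.05 or less by genotype, with higher null arrays, and by batch, with lower batch 2 arrays. *Dtx4* missed it by genotype without any 1 of 6 arrays (adjusted p up to 0.076), all but control replicate 4 and null replicate 1, and *Flrt2*, like *Slit1*, was selected by the study on these arrays. *Pax7*, a dorsal neural tube factor gene, had a log2 difference of 0.35 by genotype and -0.39 by batch, and *Nr2f2*, a nuclear receptor gene, had 0.52 and -0.40. Among the other 9 genes, r with *Slit1* was 0.927 for *Srgap1*, 0.89 for *Srgap3*, 0.562 for *Slit3*, 0.558 for *Slit2* and 0.422 for *Robo2*, and between 0.0245 and 0.377 for the rest. The correlations are descriptions of these 8 arrays.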

How the data were processed

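RNA of 8 cultures, 4 of each genotype, had been hybridised to Affymetrix mouse gene arrays after 4 days of differentiation. The authors normalized and summarised the arrays and deposited 1 log2 signal per transcript cluster. Partek is named in the submitters' processing notes. How the values were normalized and summarised, and on which genome build, was not stated in the labels, files or methods at hand. The paper calls the cultures biological replicates, and no 2 arrays held identical values. Symbols came from the platform annotation, updated through gene IDs in the gene table of GRCm38.p6. Of 35556 rows, 21789 had 1 symbol, 1621 several and 12146 were unnamed here. Array medians over named rows lay between 7.63 and 7.70.

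The 23410 named rows were fitted in limma 3.58.1 (R 4.3.3) with genotype and batch, the factors of the paper's analysis, which is not stated to share variance between genes. P-values were adjusted by Benjamini and Hochberg over all named rows, and a p-value with no test named beside it is limma's. The median residual SD was 0.0869. No filter on low signal was used. The brightest transcript cluster stands for a gene, and levels were not compared between genes. The members, gene lists, named-gene rule, tests and alternatives were chosen with earlier results of these data known. The rule names every member, pathway genes that passed, up to 3 markers of a list and the 5 genes most like *Slit1*. *Sdc3*, *Stmn2*, *Mir218-1* and *Mir218-2* fall outside it and were named after their values were seen. The limma fit of genotype was tested on simulated arrays. Samples with the same number shared a batch by the labels. Beyond batch, their deviations correlated at -0.324 in batch 1 and 0.305 in batch 2 across genes, so the numbers were not taken as pairs. Protein sequences were not analysed here. The qRT-PCR, staining and chromatin measurements were not analysed here.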

Additional observations from a re-analysis of the deposited data

How the results depend on the processing

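The 3 rises depend on how batch and variance are treated. The number of the 10 genes with an adjusted p of 0.05 or less was 3 as reported, 1 over all rows of the table, 0 with no batch term, 1 when batch was a random block, 0 in the plain linear model, 1 in batch 1 alone and 0 in batch 2 alone. The number that also reached 1.4-fold, 2 as reported, was 1, 0, 1, 0, 1 and 0 in the same settings. Leaving out each array gave 2 to 3 and 1 to 2. Of the 39 pathway genes, 2 passed as reported and 1 reached 1.4-fold. Both counts were 0 over all rows, with no batch term, in the plain linear model and within either batch, and without 1 array at a time they were 1 to 3 and 1. The number of the 10 genes that differed by batch, 4 as reported, was 2 over all rows and 2 to 4 when an array was left out. With the replicate number as a block in place of batch, the paired counts were 3 and 2 for the 10 genes and 2 and 1 for the pathway genes, and no call changed. Not every sample correlated best with its own number.

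Signs turned for genes near 0. *Srgap2* had 0.0017 with arrays centred on their medians, 0.011 in batch 1 alone, and 0.0043, 0.040 and 0.0097 without control replicate 2, control replicate 4 and null replicate 3, over a range of -0.051 to 0.040 when an array was left out. *Slit3* had 0.040 in batch 2 alone. *Robo3* had -0.0087 without null replicate 4 and at most 0.12 without another array. The batch difference of *Robo3* was -0.0073, -0.014 and -0.053 without null replicate 1, control replicate 4 and null replicate 4. It reached 0.077 at most when an array was left out and 0.089 with the arrays quantile normalized again. *Slit1*, *Slit2*, *Srgap1*, *Dcc* and *Nell2* were above 0 in all 20 alternatives run for each, from 0.67 to 0.77, 0.47 to 0.64, 0.33 to 0.46, 0.51 to 0.66 and 0.29 to 0.37. Their adjusted p ran up to 0.53, 0.183, 0.458, 0.423 and 0.412. Without the batch term the *Slit1* difference stayed at 0.72, and its standard error was 0.24 in place of 0.06. The cause of the lost calls was not tested, except that each batch alone has 4 arrays. The number of arrays limits the precision.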
